A study of Mus musculus with 6 samples.

Results

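The clustered protocadherin genes of the mouse lie together on chromosome 18 in the order Pcdha, Pcdhb and Pcdhg. CTCF peaks were taken from mm9 chromosome 18, 37000001 to 38100000, a window that holds all 3 gene clusters and 100 kb after the last of them. The members were chosen by position alone: every peak of the 3 deposited lists whose midpoint lies in the window. They form 51 sites out of 48367 in the genome, where a site is a connected set of peaks from the 3 lists that overlap by at least 1 bp. The wild-type list gave 33 of its 40271 peaks to the window, clone D 39 of 29769 and clone C8 35 of 32308. Sites are numbered 1 to 51 in the order of their positions.

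The peaks come from ChIP-seq, in which DNA bound by CTCF is pulled down with an antibody and sequenced, of G1E-ER4 cells. This is a mouse erythroblast line that lacks GATA1, the master regulator of red cell genes, and carries a GATA1-ER fusion that responds to estrogen. All libraries came from cells given 100 nM estradiol for 24 hours, which activates the fusion protein and starts erythroid maturation. The ChIP libraries were 1 of wild-type G1E-ER4 cells and 1 from each of 2 BRD2-null clonal sub-lines, D_Brd2KO and C8_Brd2KO, made with CRISPR/Cas9 and without detectable BRD2 per the study's design text. BRD2 is a BET protein that binds acetylated histones. The 3 matching input libraries were not analysed here. Each sub-line is 1 clone, so loss of BRD2 and clonal origin cannot be told apart, and peak lists alone do not allow a check of the erythroid identity or of the BRD2 loss. With 1 wild-type library no test between wild-type and BRD2-null cells was possible, and values are given as descriptions beside their genome-wide background. Sequencing depth is unknown, so a site missing from a list was not called there, which does not show that it was unbound.

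Protocadherins are cadherin-like adhesion proteins, best known in neurons. There each cell switches on a small set of Pcdha, Pcdhb and Pcdhg promoters, and the resulting protein combination helps a neuron to tell its own processes from those of its neighbours. Each variable exon of Pcdha and Pcdhg has its own promoter and is spliced to shared constant exons, while Pcdhb genes have no such constant exons. CTCF is a zinc finger DNA-binding protein that, with cohesin, anchors chromatin loops, and in neural cells it binds many protocadherin promoters and connects them to distant enhancers. In the RefSeq gene table, used here for names and order only, Pcdha has 14 genes, from Pcdha1 to Pcdhac2, Pcdhb has 22, from Pcdhb1 to Pcdhb22, and Pcdhg has 22, from Pcdhga1 to Pcdhgc5. The next protein-coding genes after Pcdhgc5 are Diaph1 and Hdac3, and Slc25a2 and Taf7 stand between Pcdhb and Pcdhg. No mm9 gene annotation was used, so sites are placed in the approximate cluster intervals and not in single genes, exons or promoters.

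CTCF sites were spread unevenly over the 3 gene clusters. The Pcdha interval (37090001 to 37350000) held 6 sites, or 23.1 per Mb, the Pcdhb interval (37400001 to 37700000) 22 sites, or 73.3 per Mb, and the Pcdhg interval (37800001 to 38000000) 13 sites, or 65 per Mb. The last 100 kb of the window, after Pcdhg, held 8 sites, or 80 per Mb. Between Pcdhb and Pcdhg there were 2 sites, and no list had a peak in the 90 kb before Pcdha or in the 50 kb between Pcdha and Pcdhb. Each list gave the same order within the clusters, with Pcdha the sparsest. Wild type had 3 peaks in Pcdha, 14 in Pcdhb and 7 in Pcdhg. The corresponding counts were 4, 17 and 10 for clone D, and 3, 16 and 9 for clone C8. Set against the gene counts, the sites pooled from the 3 lists were 6 for 14 genes in Pcdha, 22 for 22 in Pcdhb and 13 for 22 in Pcdhg. The equal numbers in Pcdhb come from pooling, since each single list had fewer peaks there, and no site was assigned to a gene.

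**Figure D1:**
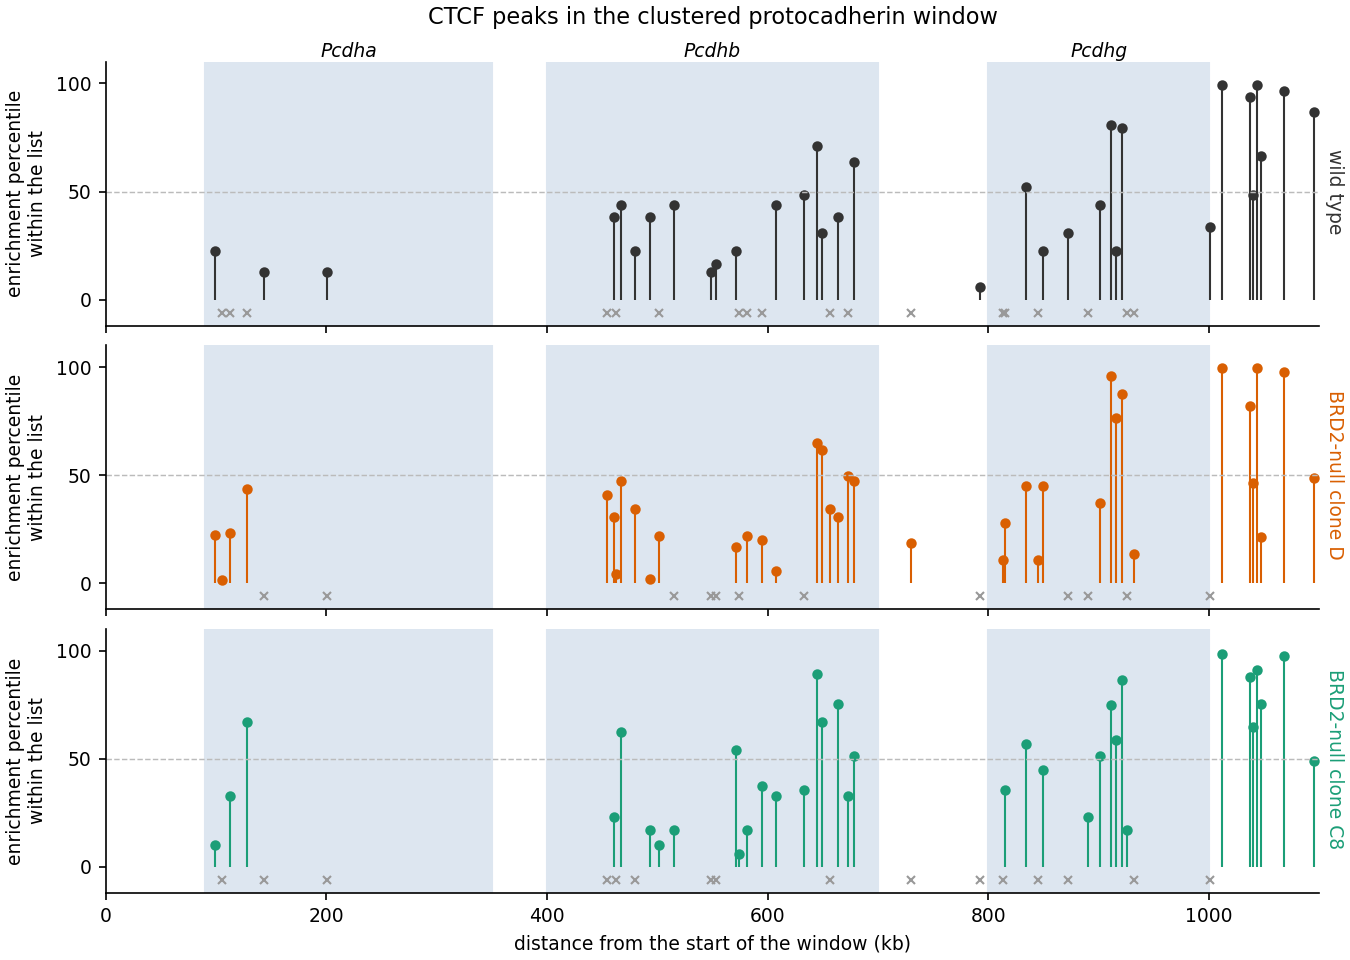
Each vertical line is a CTCF peak at its distance from the start of the window (kb, x axis), and its height is the percentile of its enrichment among all peaks of the same list (y axis); shaded bands are the Pcdha, Pcdhb and Pcdhg intervals, crosses mark sites not called in that list, and the dashed line is the 50th percentile. Peaks are few in Pcdha and more frequent in Pcdhb and Pcdhg, and the interval after Pcdhg has the highest median percentile, in all 3 lists.

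Peak strength was highest at the median after Pcdhg in each list. Pcdha had the lowest median of the clusters, though in C8 it differed little from Pcdhb, and Pcdhg peaks were stronger at the median than Pcdhb peaks although less dense. Strength is given by the authors' enrichment, the fold value of a peak in its own list, and by its percentile in that list, since enrichments of different lists are not on a common scale. In Pcdha the median percentile was 12.7 in wild type, 22.6 in clone D and 32.7 in clone C8. Pcdhb peaks had medians of 38, 30.7 and 34.2, and Pcdhg peaks 43.7, 41.1 and 51.2. After Pcdhg the medians were 90.2, 82.1 and 87.9. With each list divided into 10 strength classes of equal size by enrichment, 79.2% of the wild-type peaks in the gene clusters, 83.9% of those of clone D and 57.1% of those of C8 lay in the weaker 5 classes. After Pcdhg the shares were 25%, 42.9% and 14.3%.

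Pcdha contained 1 site called in all 3 lists. This was site 1 (37098524 to 37099004), the first site of the window. It was weak in each list, with an enrichment of 13.88 and rank 30104 in wild type, 10.65 and rank 23171 in clone D, and 10.34 and rank 28521 in clone C8. The strongest Pcdha site of the clones, site 4 (37127619 to 37128182), was absent from the wild-type list. Its enrichment was 15.64 in clone D (rank 16591) and 29.71 in clone C8 (rank 10512). Site 3 (37112638 to 37113068) was likewise a site of both clones without a wild-type peak, and site 2 was found in clone D only. Sites 5 and 6 were called in wild type only, each with an enrichment of 11.89 and a false discovery rate in the authors' column of 0.286 and 0.5842. After site 6, the last in Pcdha, came the longest stretch without a site, 254 kb from 37200530 to 37454127, which spans the rest of the Pcdha interval and the start of the Pcdhb interval. Taken list by list, the stretch measured 260 kb for wild type, 326 kb for clone D and 332 kb for C8. Over the genome, 3.79% of the gaps between neighbouring sites were at least as long.

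Pcdhb held the largest number of sites, from site 7 (37454127 to 37454645, clone D only) to site 28 (37677640 to 37678223). All 3 lists had 9 of the 22 sites. Site 23 (37644235 to 37644935) was the strongest of these in wild type. It had an enrichment of 37.67 in wild type (rank 11440), 22.67 in clone D (rank 10493) and 47.4 in clone C8 (rank 3538). Site 28 had enrichments of 31.72, 16.56 and 21.96, at ranks 14331, 15623 and 15568. Site 10 (37466769 to 37467299) and site 21 (37606942 to 37607470) shared the next wild-type rank, 22021, with an enrichment of 19.82. They differed in the clones: site 10 ranked 15623 for D and 12000 for C8, and site 21 ranked 28071 and 21435. A false discovery rate no higher than 0.05 was given to 2 of 14 wild-type Pcdhb peaks, 16 of 17 from clone D and 12 of 16 from C8 (14.3%, 94.1% and 75%). Over the whole lists the shares were 52.7%, 94.8% and 85.4%, so the D share was close to that of its list.

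Pcdhg ran from site 31 (37813357 to 37813754, clone D only) to site 43 (37931589 to 37932045, clone D only), with 6 of 13 sites in all 3 lists. Its strongest sites lay together just past the middle of the interval. No list had a peak in the 68.9 kb between site 43 and site 44, the first site after Pcdhg. Site 39 (37910959 to 37911506) had an enrichment of 47.58 in wild type (rank 7559), 46.93 in clone D (rank 1225) and 34.82 in clone C8 (rank 8065). Site 41 (37920756 to 37921608) had enrichments of 45.6, 35.49 and 44.29, at ranks 8186, 3721 and 4313. It also had the widest peaks of Pcdhg, 662, 825 and 798 bp wide, against median widths of 402, 489 and 417 bp over the whole lists in the same order. Between these stood site 40, and the 3 sites covered 37910959 to 37921608. Site 33 (37833605 to 37834173), in the near part of the cluster, had enrichments of 23.79, 15.93 and 24.55, at ranks 18872, 16360 and 13757.

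The strongest sites of the window lay after Pcdhg, in the last 100 kb. Of the 8 sites there, 7 were called in all 3 lists, and these included the 5 highest wild-type ranks of the window. Site 48 (38042900 to 38043755) had an enrichment of 107.94 and rank 257 in wild type, 66.69 and rank 124 in clone D, and 49.99 and rank 2938 in clone C8. Site 45 (38011600 to 38012313) had enrichments of 103.09, 65.94 and 70.91, at ranks 331, 134 and 505. Both were therefore within the strongest 10% of every list, at percentiles of 90.9 or more. Site 50 (38067563 to 38068128) followed, with 79.3, 52.69 and 65.89 at ranks 1350, 615 and 740. Site 46 (38036859 to 38037489) had 69.39, 31.4 and 45.78 at ranks 2477, 5321 and 3898. Sites 46 to 49 lay together between 38036859 and 38047110. Their strengths were unequal: site 49 (38046571 to 38047110), next to site 48, ranked 13327 in wild type, 23328 for clone D and 8030 for C8. The exception to the shared calling was site 44 (38000926 to 38001407), called in wild type only with an enrichment of 15.98 and a false discovery rate of 0.1497.

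Neighbouring sites were closer at the median in the window than over the genome. The median distance between the midpoints of neighbouring sites was 10.9 kb in the window, 15.7 kb in the flanks of 1 Mb on each side and 21.2 kb over the genome. In Pcdhb it was 7.88 kb and in Pcdhg 7.92 kb, with quartiles of 4.76 and 13.4 kb in Pcdhb and of 4.52 and 13 kb in Pcdhg. Pcdha sites were 15 kb apart at the median. The closest neighbours were sites 31 and 32 in Pcdhg, 1.72 kb apart, and in Pcdhb the closest were sites 8 and 9, 2.42 kb apart. Spacings under 5 kb made up 13 of 50 in the window (26%), 13 of 78 in the flanks (16.7%) and 19.3% over the genome. Sites called in all 3 lists were 18.3 kb apart at the median in the window, against 30.2 kb in the flanks and 30.8 kb over the genome. Their widest spacing was 362 kb in the window and 222 kb in the flanks. The window of 1.1 Mb held 23 such sites and the flanks of 1 Mb on each side held 51. By number per Mb they were thus not denser in the window than in the flanks. Peaks of a shared site lay at nearly the same place in each list: the midpoints of the 3 peaks spanned a median of 53 bp at the 23 shared sites, at most 132 bp, and 67 bp over the genome.

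Measured against the flanks, the window was not clearly denser or sparser in peaks in any list. The flanks were 36000001 to 37000000 and 38100001 to 39100000. Wild type had 30 peaks per Mb in the window and 37 in the flanks, a ratio of 0.811 (exact 95% interval 0.521 to 1.24). In clone D there were 35.5 and 29.5 peaks per Mb, a ratio of 1.2 (0.781 to 1.83). Clone C8 had 31.8 and 29.5, a ratio of 1.08 (0.689 to 1.67). The intervals include 1 in each list, overlap between lists, cover counting error only and treat neighbouring peaks as independent. The flanks were uneven themselves, since wild type had 45 peaks upstream and 29 downstream, while each clone had 32 and 27. Against the genome the window was rich in peaks: the median window of 1.1 Mb held 13 peaks in wild type, 9 in D and 10 in C8. Of 2347 such windows, 13.3% had as many wild-type peaks or more, 5.28% as many in clone D and 8.56% as many in clone C8.

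**Figure D2:**
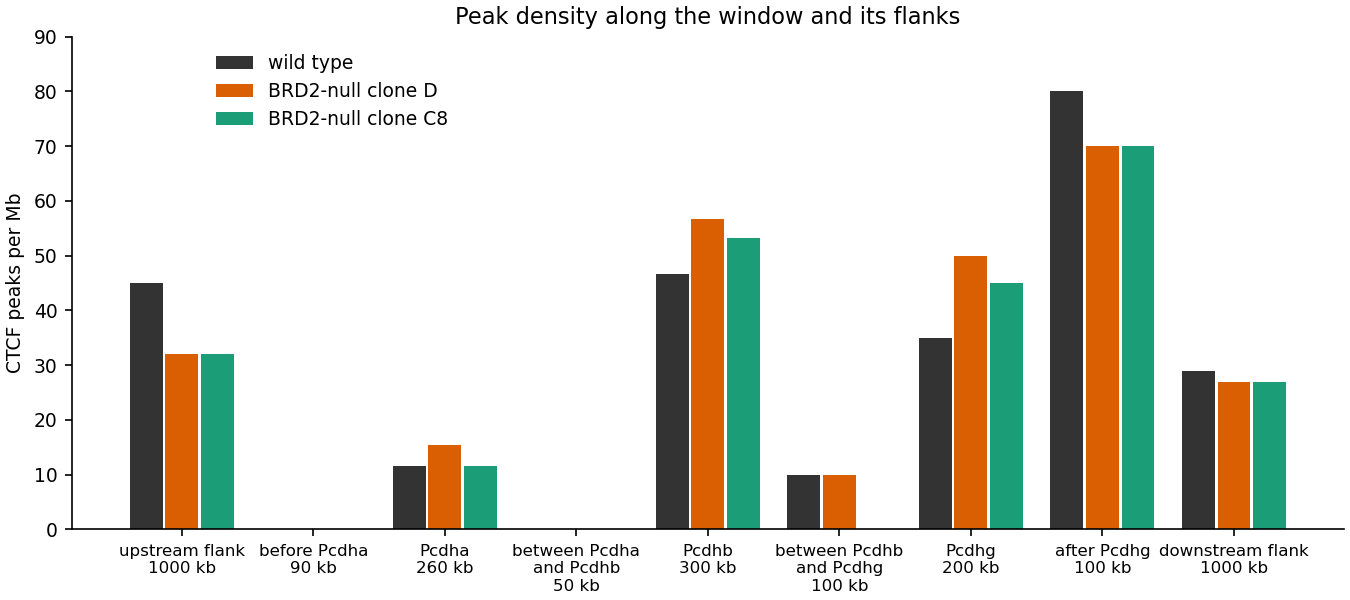
Bars give CTCF peaks per Mb (y axis) in the wild-type, clone D and clone C8 lists for each interval of the window and for the flank on each side (x axis, with interval lengths in kb); no error bars are drawn because each bar is 1 library. The interval after Pcdhg is highest in every list (80, 70 and 70 per Mb), Pcdha has 11.5, 15.4 and 11.5 per Mb, and 2 intervals have no peak in any list.

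By false discovery rate and p, the wild-type peaks of the window were weaker than their list, and those of the clones were nearer to theirs. A false discovery rate no higher than 0.05 was given to 11 of 33 wild-type peaks (33.3%), compared with 49 of 74 in the flanks (66.2%) and 52.7% of the list. For clone D it was 37 of 39 (94.9%), beside 96.6% in the flanks and 94.8% of its list. For C8 it was 29 of 35 (82.9%), beside 96.6% in the flanks and 85.4% of its list. By the authors' −log10 p, 12 of 33 wild-type peaks reached 10 (36.4%, flanks 68.9%, list 55.8%). The same threshold was reached by 25 of 39 peaks of clone D (64.1%, flanks 86.4%, list 73.8%). In C8 it was reached by 25 of 35 (71.4%, flanks 84.7%, list 69.4%). By enrichment the order of the lists was another: the weaker 5 strength classes, which hold 50% of each list, held 22 of 33 wild-type peaks (66.7%), 30 of 39 of clone D (76.9%) and 17 of 35 of C8 (48.6%). The median percentiles in the window were 43.7, 34.5 and 51.2. Among peaks that reached 10 by −log10 p, the ratio of window to flank density was 0.428 for wild type (0.208 to 0.813), 0.891 for clone D (0.529 to 1.47) and 0.909 for C8 (0.539 to 1.5). The wild-type interval then lay below 1 and still overlapped those of the clones.

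A larger share of the window's sites than of all regions was missing from the wild-type list. All 3 lists shared 23 of the 51 sites (45.1%, exact 95% interval 31.1 to 59.7), against 49.5% of all regions. Wild type alone held 7 sites (13.7%, 5.7 to 26.3), against 26.2% of all regions and 13 of 80 flank sites (16.2%). Both clones without wild type held another 7 (13.7%, 5.7 to 26.3), against 4.48% of all regions and 0 of 80 flank sites (0%, 0 to 4.51). Clone D alone held 8 sites (15.7%, 7.02 to 28.6), against 4.7% of all regions, and clone C8 alone 3 (5.88%, 1.23 to 16.2), against 7.94%. The remaining sites were 1 in wild type and clone D (background 2.7%) and 2 in wild type and clone C8 (background 4.54%). In total 18 of 51 sites were absent from the wild-type list (35.3%, 22.4 to 49.9), against 17.1% of all regions, 16.6% of the regions of chromosome 18 and 8 of 80 flank sites (10%). Of 947 windows of 1.1 Mb with at least 20 sites, 2.22% had as high a share absent from wild type, this window included. They were 3 of 6 Pcdha, 8 of 22 Pcdhb and 6 of 13 Pcdhg sites and site 29 between Pcdhb and Pcdhg, while all 8 sites after Pcdhg had a wild-type peak. Without clone D the absent sites were 10 of 43 (23.3%, against 13% of all regions), and without clone C8 they were 15 of 48 (31.2%, against 9.98%).

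**Figure D3:**
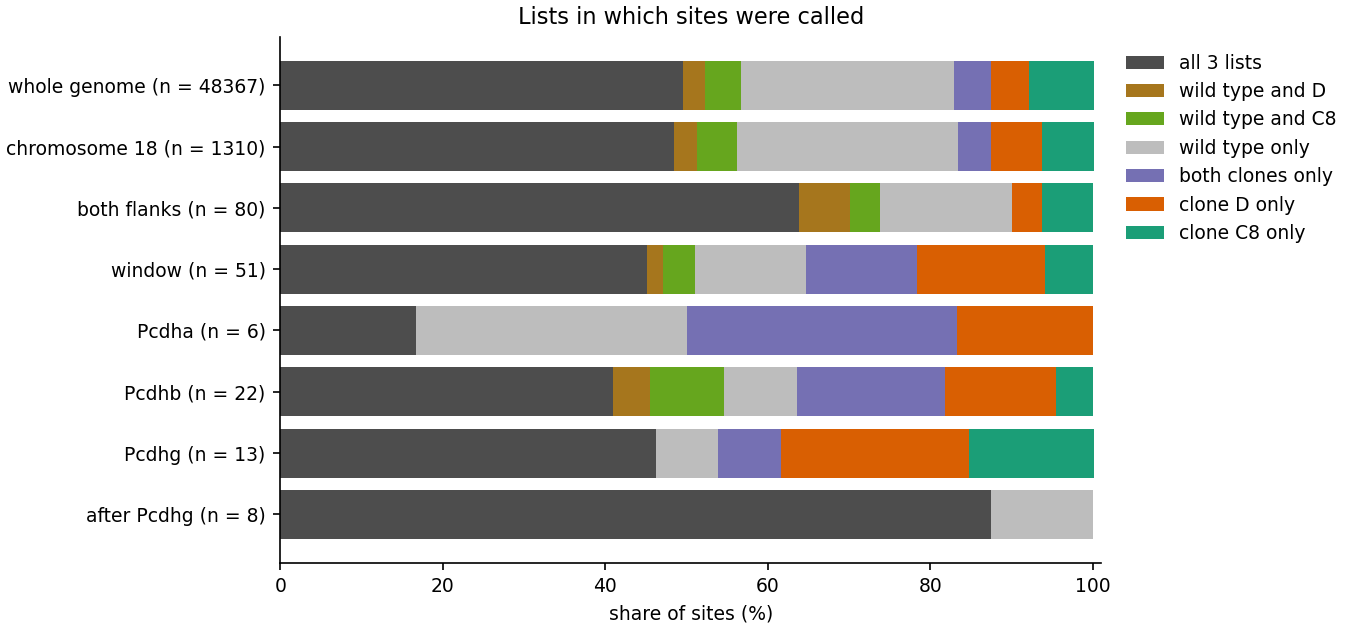
Each bar divides the sites of a set into the lists in which they were called (share of sites in %, x axis; number of sites beside each name), for the genome, chromosome 18, the flanks, the window and its intervals. Sites called in both clones alone are 13.7% of the window, 4.48% of the genome and none of the flanks, and 7 of the 8 sites after Pcdhg are in all 3 lists.

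The sites that both clones held without wild type were sites 3 and 4 in Pcdha, 13, 19, 20 and 27 in Pcdhb and 32 in Pcdhg. Site 27 (37672865 to 37673471) had an enrichment of 17.29 in clone D (rank 14924) and 15.5 in clone C8 (rank 21435). Site 32 (37815022 to 37815533) had 11.59 in clone D (rank 21429) and 16.55 in clone C8 (rank 20770). Of the 7, site 4 had the best rank in C8, at percentile 67.1, and site 27 the best in clone D, at percentile 49.4. The strongest sites called in clone D alone were site 7 with an enrichment of 14.82 (rank 17450), site 25 (37656351 to 37656762) with 13.17 (rank 19331) and site 29 (37730116 to 37730557) with 9.88 (rank 23955). Clone C8 alone had site 37 with 12.92 (rank 24369), site 42 with 11.63 (rank 26294) and site 18 with 9.2 (rank 30388). The wild-type sites of their own were weak as well: besides site 44, the strongest were site 36 (37871738 to 37871996) with 15.86 (rank 26877) and site 16 (37552595 to 37552918) with 12.5 (rank 33557). All 7 wild-type-only sites had a false discovery rate above 0.05. A rate no higher than that was given to only 11 of 33 wild-type peaks of the window and 52.7% of the wild-type list. The rates of different lists are not on a common scale. A −log10 p of 9.26 went with a rate of 0.0979 in wild type (site 10), and 9.25 with 0.0069 in clone D (site 3). Clone C8 missed site 11, a Pcdhb site at rank 30104 in wild type and 19331 in clone D. Clone D missed sites 14 and 22, also in Pcdhb, at wild-type ranks 22021 and 20368.

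Seen from each list, wild-type peaks of the window were found in the clones at shares whose intervals include those of the whole list, and clone D peaks were found in wild type at a lower share than their list. Clone D had a peak at 24 of the 33 wild-type peaks (72.7%, 54.5 to 86.7), against 63.1% of the whole wild-type list, and clone C8 at 25 (75.8%, 57.7 to 88.9), against 65.3%. Wild type had a peak at 24 of 39 clone D peaks (61.5%, 44.6 to 76.6), against 85.1% of the clone D list, and at 25 of 35 clone C8 peaks (71.4%, 53.7 to 85.4), against 81.4%. Of these 4 intervals, the one for clone D peaks leaves out the share of its list. Both other lists together held 23 of the 33 wild-type peaks (69.7%, 51.3 to 84.4, list 59.8%), 23 of 39 for clone D (59%, 42.1 to 74.4, list 80.6%, which lies above the interval) and 23 of 35 for C8 (65.7%, 47.8 to 80.9, list 74.5%). The clones found each other's peaks at 30 of 39 (76.9%, against 87.9%) and 30 of 35 (85.7%, against 81.3%). Weak peaks are shared less often in every list, so the counts were also set beside the rates of the same strength class. Those rates give 31.3 clone D peaks found in wild type where 24 were, and 28.9 clone C8 peaks where 25 were. For wild-type peaks found in both clones they give 17.6 where 23 were. The flanks had a similar share of such peaks, 70.3% beside 69.7% in the window. Of the flank peaks of clone D, 94.9% were found in wild type, and of those of clone C8, 91.5%. For clone D peaks found in clone C8 they give 32.8, and for clone C8 peaks found in clone D 29, each beside an observed 30.

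The number of peaks also stood higher in the clones than the lengths of the lists give. Clone D had 1.18 times as many peaks as wild type in the window, against 0.739 over the whole lists and 0.797 in the flanks. Clone C8 had 1.06 times as many, against 0.802 and 0.797. Of 749 windows of 1.1 Mb with at least 20 wild-type peaks, 0.401% (3 windows, this one included) had as high a ratio in clone D and 5.34% in clone C8. The ratio in the median window was 0.844 for clone D and 0.887 for clone C8. These ratios share the wild-type list, so the clones are not independent of each other here.

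**Figure D4:**
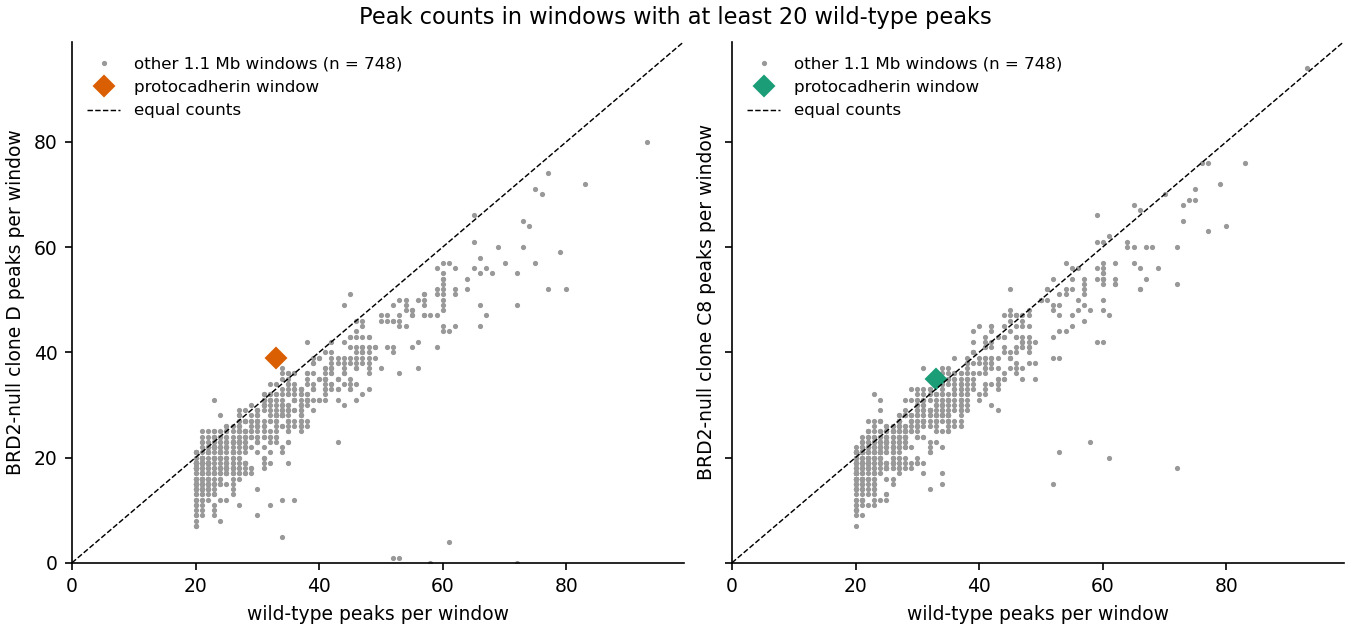
Points are windows of 1.1 Mb with at least 20 wild-type peaks, with wild-type peaks on the x axis and peaks of clone D (left) or clone C8 (right) on the y axis; the diamond is the protocadherin window and the dashed line marks equal counts. The diamond lies above the line in both panels, with 33 wild-type peaks, 39 from clone D and 35 from C8, while most windows lie below it.

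Relative strength was compared at the 23 sites called in all 3 lists. Each site was ranked by enrichment among the 23933 regions that all 3 lists hold, so that the ranks come from sets of equal length, and a shift of at least 10 percentile points in both clones in the same direction was counted. Higher in both clones were 6 of 23 sites (26.1%), against 18.2% of all shared regions, and lower in both was 1 (4.35%), against 17.2%. Sites 1, 17, 35 and 40 stood at percentile 3.28 in wild type and site 24 at 6.41, so none of them could fall by 10 points. The backgrounds cover shared regions of all ranks and were not matched by wild-type rank. A low rank leaves more room to rise than to fall, which limits these counts and the median shifts alike. The median shift from wild type was 7.94 points in clone D and 16.8 points in clone C8, against 0.299 and 0.0689 over all shared regions. Between the clones, C8 minus D, it was 3.3 points at these sites. Without sign, the median difference was 9.86 points between clone D and wild type and 19 between clone C8 and wild type. Between the clones it was 9.57, so clone D stood about as far from C8 as from wild type. In clone D 17 of the 23 sites ranked higher than in wild type and 6 lower, and in clone C8 14 higher and 9 lower. A similar asymmetry appeared when clone C8 was set against the other lists: 7 of 23 sites ranked lower in both other lists (background 13.8%) and 1 higher (background 14.7%). With clone D as the library set apart, the counts were 2 lower and 2 higher (backgrounds 15.2% and 15.7%). The shifts with wild type set apart were thus no more one-sided than those with clone C8 set apart.

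Among the shifted sites, site 40 (37915101 to 37915564) in Pcdhg had the largest difference between wild type and clone D, 67.7 points. It stood at percentile 3.28 in wild type, 71 in clone D and 44.6 in clone C8, with enrichments of 13.88, 28.1 and 25.32. Site 24 (37648808 to 37649243) in Pcdhb stood at 6.41, 52.6 and 55.9, with enrichments of 15.86, 21.41 and 29.71. Site 35 (37849127 to 37849669) in Pcdhg stood at 3.28, 33.4 and 27.8. These 3 sites were among the weakest shared sites of wild type. Their wild-type false discovery rates were 0.2832 at site 40, 0.0996 at site 24 and 0.4874 at site 35. Both clones had sites 24 and 40 at percentile 44.6 or above, and site 35 at 33.4 or below. Site 10 in Pcdhb stood at 15.1, 35.7 and 49.6, site 41 in Pcdhg at 65.2, 84.4 and 82, and site 47 (38039775 to 38040334), after Pcdhg, at 19.3, 34.9 and 52.9. In the other direction, site 51 (38095155 to 38095686), the last of the window, stood at 77.9 in wild type, 37.5 in clone D and 32.5 in clone C8, with enrichments of 55.51, 17.21 and 20.75. The clones also differed from each other at some sites: site 49 stood at 44.1 in wild type, 11.5 for D and 66.5 for C8, and site 26 in Pcdhb at 10.7, 18.6 and 67. Of the 3 strongest sites, site 45 stood at 98.6, 99.4 and 97.9, site 50 at 94.2, 97.4 and 96.8, and site 48 at 98.9, 99.5 and 87.7.

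**Figure D5:**
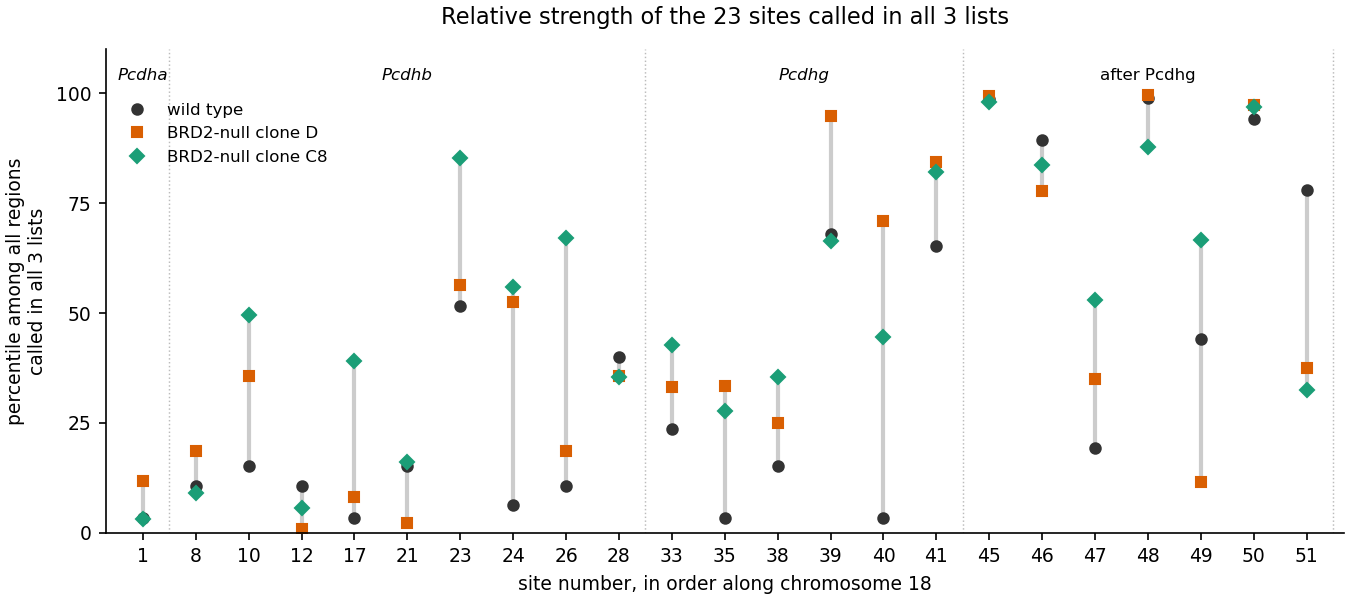
Points give the percentile of each of the 23 shared sites among all regions called in all 3 lists (y axis) for wild type (circle), clone D (square) and clone C8 (diamond), in order along the chromosome (x axis); grey bars span the 3 values. Sites 24, 35 and 40 are lowest in wild type with both clones well above, site 51 is the reverse, and sites 26 and 49 differ widely between the clones.

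Across these 23 sites the percentiles of wild type and clone D had a correlation of 0.77, those of wild type and clone C8 0.74 and those of the clones 0.79. Over all 23933 shared regions the values were 0.69, 0.71 and 0.75. The sites are neighbours on 1 chromosome and are measured in the same libraries, so these are descriptions only.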

How the data were processed

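CTCF ChIP-seq peak lists of 3 libraries were used, 1 list per library; 3 input libraries were not analysed here. Build mm9, Bowtie 1.0.0 and bcl2fastq 1.8.4 are named, per the submitters' processing notes. The peak caller and any use of the inputs are not stated in the labels or lists. For each peak the authors deposited a fold enrichment (ratio with unstated denominator), a −log10 p of at least 5, and a q-value field that gives a false discovery rate between 0 and 1. The lists hold no read totals, so depth is unknown.

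Peaks were placed by midpoint and joined at 1 bp overlap; positions count from 1. Percentiles and ranks are within a list, or within the regions that all 3 lists hold. Intervals are exact (Clopper-Pearson, 95%) and cover counting error only. The cluster intervals are approximate. Windows of 1.1 Mb tiled all chromosomes except Y, and those without any peak were left out.

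The members, intervals and measures were chosen with earlier results of these data known. Sites named were those with the 3 best wild-type ranks among shared sites of each cluster, the 10 best wild-type ranks, the 3 strongest of each call pattern, the rank-shifted sites, spacing extremes and cluster ends; sites 26 and 49 as examples of differing clones were picked with their values known. No test was run, because wild type has 1 library. Gene names and order are from RefSeq (GRCm38.p6), without coordinates. Alternatives covered overlap, thresholds, list length, flanks, window and each clone left out. Python 3.11.15, pandas 2.3.3, numpy 2.4.6, SciPy 1.17.1 and matplotlib 3.10.9 were used; the code was tested on simulated data, and bedtools 2.31.1 gave the same number in 6 of 6 overlap counts.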

Additional observations from a re-analysis of the deposited data

How the results depend on the processing

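Of 99 values under an alternative, 70 stayed within a factor of 1.5 (counts), the exact interval (shares and density ratios) or the spread between clones (spacing), and 29 moved. A reciprocal overlap of 50% and extension by 500 bp moved none. The upper 75% of each list left 15 sites in all lists, 4 in wild type only and 11 absent from wild type. Equal list lengths left 2 (by enrichment) or 1 (by −log10 p) sites of wild type alone, with 11 in both clones without wild type by either measure, and by −log10 p both clones then held 85.7% of wild-type peaks. A −log10 p of at least 10 gave 28 sites, 11 in all lists, 0 in wild type only, 11 in both clones without wild type, a share of 91.7% of wild-type peaks held by both clones and a wild-type density ratio of 0.428. A rate (false discovery) no higher than 0.05 gave 11 in all lists, 0 in wild type only, 16 in both clones without wild type, 28 absent from wild type, a share of 100% and a ratio of 0.408. That threshold kept 52.7% of the whole wild-type list, 94.8% of that of clone D and 85.4% of that of C8. Among call patterns, genome-wide shares under an alternative were computed only for sites absent from wild type. The other pattern counts therefore have no background, and whether they are particular to this window was not tested. The share of sites absent from wild type was above that of all regions in each setting. It ran from 23.3% (against 13%) without clone D to 71.8% (against 34.5%) at a false discovery rate no higher than 0.05. No interval was computed with a clone left out, so the difference without clone D was not set against counting error. Leaving out each clone gave 10 to 15 sites absent from wild type. These are by definition the sites of the remaining clone without wild type, so the 99 values count them under both names. With 1 clone left, 10 to 12 shared sites ranked higher than in wild type and 3 to 5 lower, since only 1 list had to shift; a shift of 5 points gave 2 lower in both clones. The median spacing was 18.3 kb for sites in all 3 lists and 8.64 kb within the gene clusters, an alternative chosen after seeing the data, as were call patterns in the gene clusters and without each clone. No paired analysis was possible because wild type has 1 library, the clones carry no numbers that pair them with it, and no test was run. Unknown depth limits every count of weak sites.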
